A study of Mus musculus with 53 samples.

Results

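The 40 genes described here serve DNA replication (32 genes) and DNA repair or the replication checkpoint (8 genes), out of 19057 named genes with a probe on the array. They were chosen by known function, with earlier results of these data known, and each was read from the probes that the array annotation gives its symbol. A gene was kept in a tissue where a probe had a detection score above 0.95 on at least 5 arrays of that tissue, and the probe with the highest mean signal stood for the gene. This left 33 members in liver and 35 in thymus, with 32 in both. Pcna (the sliding clamp of the polymerases), Pola1 and Prim1 (the catalytic subunits of polymerase alpha and primase) and Slbp (which binds histone mRNA) were kept in neither tissue. Fanca, Topbp1 and Chek1 were kept only in thymus and Exo1 only in liver.

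Messenger RNA of 53 mouse samples was hybridized to Illumina bead arrays, and 52 of them came with a signal for every probe. The p53 f/f liver tumors carried floxed alleles of Mad2l1 (Mad2, a protein of the spindle assembly checkpoint) and of Trp53, both homozygous, with the Alb-Cre transgene, and numbered 20 arrays with a signal from 15 animals. The p53 f/+ liver tumors carried homozygous floxed Mad2l1, heterozygous floxed Trp53 and Alb-Cre, and numbered 8 arrays from 5 animals. The T-cell acute lymphoblastic leukemias (T-ALLs, 9 arrays) carried both floxed genes as homozygotes with Lck-Cre. The controls were wild type healthy livers (10 arrays) and healthy thymuses (5 arrays), and all mice were of a mixed B6-129Sv background with no age given in the labels. Alb-Cre acts in developing hepatocytes and Lck-Cre in early thymocytes, whereas a piece of tumor or organ also holds other cells.

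Before a cell divides, the Mcm proteins are loaded onto origins by Cdc6 and Cdt1, and with Cdc45 and the GINS complex they become the helicase that unwinds DNA. Polymerases, the clamp and its loader, the flap nuclease and DNA ligase then copy the strands, and chromatin assembly factor wraps the new DNA in histones. Most of these genes are transcribed as cells enter S phase, under E2F factors, so that their messenger RNA is scarce in resting tissue such as adult liver and abundant in dividing tissue such as thymus.

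Of the libraries, healthy liver 1 was unlike the other livers: 21 of its 28 replication members lay above the highest of the other 9 healthy livers. T-ALL 7 had a signal that ranked the probes unlike the authors' own log2 values for that sample (rank correlation 0.786), and its signal was kept as labelled. T-ALL 5 was nearly blank, with 4.56% of probes detected, T-ALL 4 was dim, with a 95th percentile of signal of 299.5, and liver tumor 13 was the dimmest liver array at 428.1. On the other arrays the share of detected probes was between 30.6% and 40.3%. Results that rest on these libraries are given with and without them. Mad2l1 was at 7.74 ± 0.85 (SD, n = 20; log2 signal) in p53 f/f liver tumors, 6.29 ± 0.40 (n = 8) in p53 f/+ liver tumors and 6.65 ± 0.78 (n = 10) in healthy liver, and at 5.67 ± 0.54 (n = 9) in T-ALLs against 10.33 ± 0.18 (n = 5) in thymus. The targeted gene was therefore lower than in normal tissue in T-ALL, and not lower in p53 f/f liver tumors. Whether its probe lies in the deleted exons was not checked here, Trp53 was not analysed here, and the groups are named as their labels give them. Of 8 hepatocyte markers, 6 were detected on at least 1 in 2 arrays of each liver group, where the Alb and Fgb probes were not detected in healthy liver, and 8 of 9 T lineage markers were detected in T-ALL and thymus, with Cd8a below detection.

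Most replication genes were higher in p53 f/f liver tumors than in healthy liver. Of the 33 members kept in liver, 19 rose and 1 fell (limma, Benjamini-Hochberg over all 11567 genes, adjusted p under 0.05), where 15.0% of all genes rose and 14.1% fell. The replication members made up 18 of the 19 that rose, out of 28, with a median log2 difference of 0.93. Of the 5 repair members kept in liver 1 rose, a share near that of all genes, and 2 of the 5 (Brca1 and Exo1) were detected on only 5 of the 38 liver arrays. The mean difference was above 0 for 28 of the 33 members and for 49.5% of all genes. In bulk tissue, more dividing cells and more messenger RNA per cell cannot be told apart.

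In the machinery that licenses and opens origins, 9 of 12 members rose and 1 fell. Mcm6, a subunit of the helicase ring, was at 5.27 (lowest), 6.07 (median) and 9.97 (highest) in the 10 healthy livers, at 5.23, 7.48 and 9.65 in the 8 p53 f/+ tumors, and at 7.46, 8.69 and 10.93 in the 20 p53 f/f tumors. The highest healthy value was that of healthy liver 1, and every p53 f/f tumor lay above the healthy median. The difference between p53 f/f tumors and healthy liver was 2.32 ± 0.43 (log2, SE; 4.99-fold, adjusted p = 0.00011). Gins2, a subunit of the GINS complex, was detected in 1 of 10 healthy livers (healthy liver 1, at 8.49) and in 19 of 20 p53 f/f tumors, and differed by 1.55 ± 0.34 (adjusted p = 0.000633). Mcm2, another ring subunit, was at 6.16, 6.62 and 10.95 in healthy liver and at 7.23, 8.68 and 10.18 in p53 f/f tumors, a difference of 1.53 ± 0.37. Cdc45 (1.48 ± 0.34), which joins the helicase at the start of replication, and Mcm5 (1.40), Mcm4 (1.38) and Mcm3 (0.85) of the ring rose as well, as did the loader Cdt1 (1.21 ± 0.29). Cdc6, its partner in loading, passed the test with no healthy liver above detection (0 of 10) and 6 of 20 tumors detected, so no fold is given (mean 5.31 against 4.69). Cdc6 was kept in liver through p53 f/f tumors alone, so the filter favored this direction, and the counts of rises include it. Mcm7 (0.81, adjusted p = 0.0751) and Gins1 (0.67, adjusted p = 0.050039) did not pass.

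**Figure D1:**
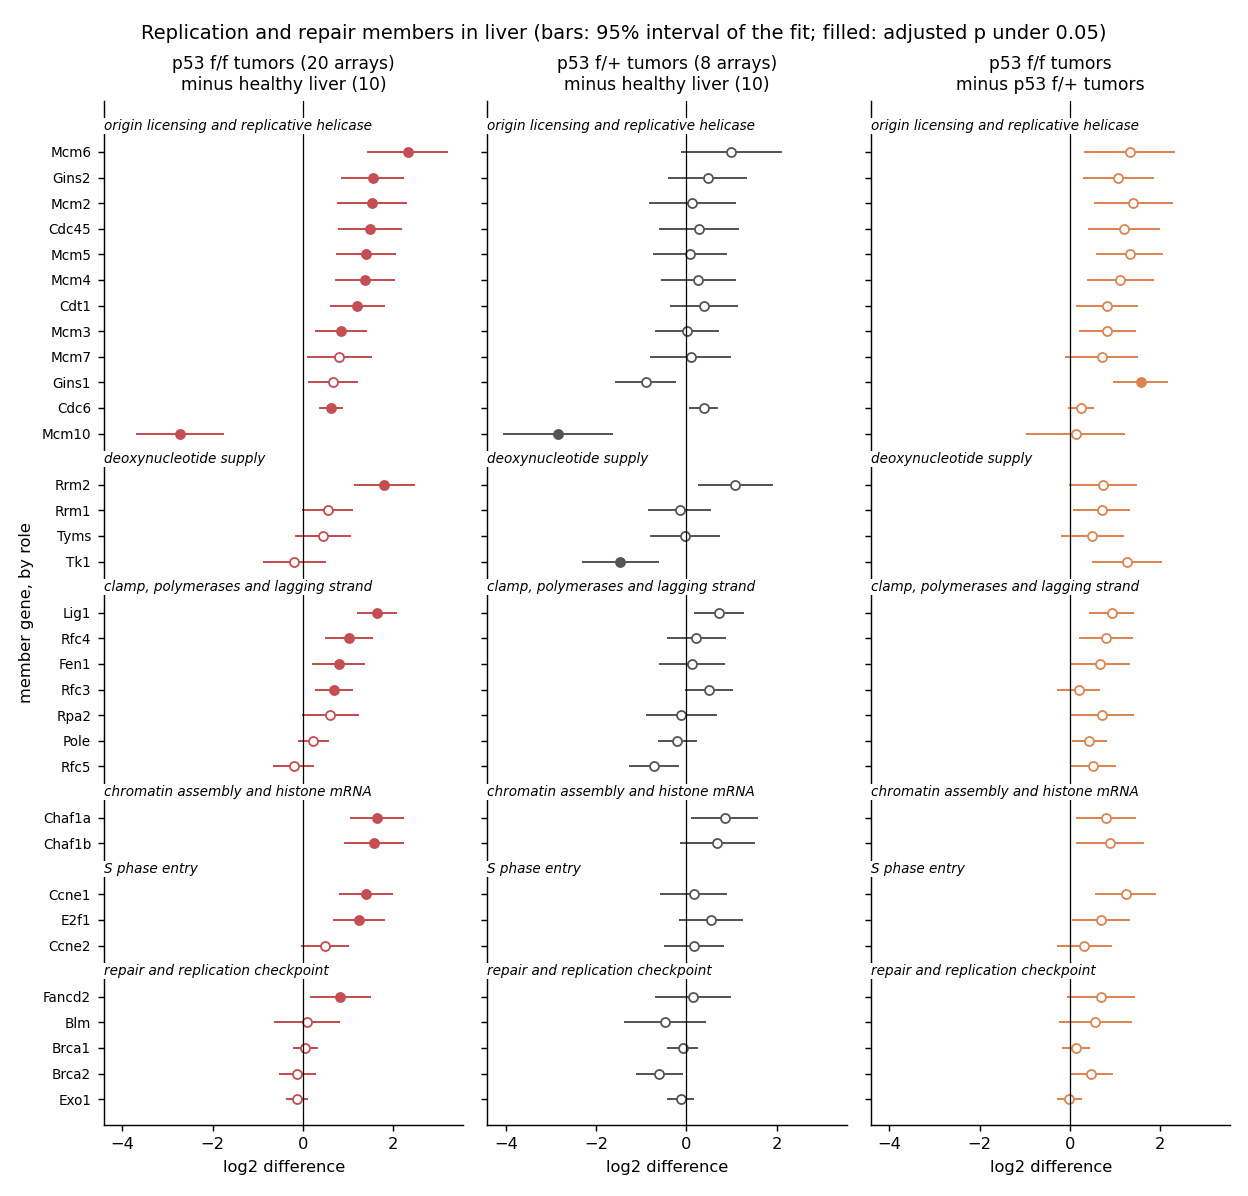
Log2 differences of the 33 members kept in liver, by role, for p53 f/f tumors minus healthy liver, p53 f/+ tumors minus healthy liver and p53 f/f minus p53 f/+ tumors; bars are 95% intervals of the fit and filled points passed the test. In the comparison of p53 f/f tumors with healthy liver 19 points are filled right of 0 and only Mcm10 left of it, against 0 and 2 for p53 f/+ tumors.

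Mcm10, which recruits polymerase alpha to the opened origin, went the other way. It was at 8.93, 11.91 and 13.23 (lowest, median, highest) in healthy liver, at 7.74, 9.00 and 10.73 in p53 f/f tumors and at 4.74, 9.33 and 10.82 in p53 f/+ tumors. The lowest healthy value was again healthy liver 1, and 9 of 20 p53 f/f tumors lay below every healthy liver. The gene fell by 2.73 ± 0.47 on the log2 scale in p53 f/f tumors (adjusted p = 4.08e-05) and by 2.85 ± 0.59 in p53 f/+ tumors (adjusted p = 0.0015). A further Mcm10 probe, detected on 37 liver arrays like the one used, gave -3.00 for p53 f/f tumors, while the remaining Mcm10 probes were detected on 0 liver arrays. Mcm10 was also the only member whose mean was highest in healthy liver among the 5 groups, and its healthy liver level (11.82 on the scale of both tissues) was above that of thymus (11.10), a dividing tissue; the 2 did not differ past the threshold (adjusted p = 0.497).

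Of the 4 genes whose enzymes supply deoxynucleotides, 1 passed. Rrm2, the regulated subunit of ribonucleotide reductase, was at 4.97, 5.51 and 7.57 in healthy liver and at 6.06, 7.45 and 9.51 in p53 f/f tumors. Only 3 of 10 healthy livers but 20 of 20 p53 f/f tumors were above detection, and 8 of these tumors lay above every healthy liver. The difference was 1.81 ± 0.32 (3.50-fold, adjusted p = 5.38e-05). Its partner Rrm1 (0.55, adjusted p = 0.122), the thymidylate synthase gene Tyms (0.45, adjusted p = 0.258) and the salvage kinase gene Tk1 (-0.19, adjusted p = 0.70) did not pass. Tk1 was bright in healthy liver already, at 8.43, 9.52 and 10.21. Further probes gave 1.61 for Rrm2, 0.96 for Rrm1, 0.33 and 0.10 for Tyms, and -0.51, -0.58 and 0.25 for Tk1.

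At the fork, Lig1, the ligase that joins Okazaki fragments, rose the most. It was at 6.24, 6.77 and 8.47 in healthy liver, at 7.18, 7.75 and 8.06 in p53 f/+ tumors and at 7.51, 8.55 and 9.51 in p53 f/f tumors. Of the 20 p53 f/f tumors, 13 lay above every healthy liver, and the difference was 1.64 ± 0.21 (adjusted p = 3.28e-07). A further Lig1 probe gave 0.98 and another -0.10, so the probes of this gene differ. Rfc4 (1.02 ± 0.25; 13 tumors above every healthy liver) and Rfc3 (0.69), which load the clamp, and the flap nuclease gene Fen1 (0.79) rose too. The Rfc4 probe used was detected on 3 of 10 healthy livers and 17 of 20 p53 f/f tumors. A further Rfc4 probe, detected on 7 liver arrays, gave -0.01. Rpa2, a subunit of the single-strand binding protein, the polymerase gene Pole and the loader subunit gene Rfc5 did not pass (0.60, 0.23 and -0.20). Both measured subunits of chromatin assembly factor rose: Chaf1a by 1.64 ± 0.28 and Chaf1b by 1.57 ± 0.32. For Chaf1a, 3 of the 20 tumors lay above every healthy liver. Of the genes that drive entry into S phase, Ccne1 (cyclin E1; 1.40 ± 0.28) and E2f1 (1.24 ± 0.27) rose. Ccne1 was detected in 1 healthy liver and 18 p53 f/f tumors, and 12 of the tumors lay above every healthy liver; Ccne2 gave 0.49 (adjusted p = 0.15).

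Of the repair genes in liver, 1 rose and none fell. Fancd2, the Fanconi protein that is ubiquitinated at stalled forks, was at 4.52, 4.73 and 7.60 in healthy liver and at 4.90, 5.56 and 8.31 in p53 f/f tumors, and was detected on 1 and 14 arrays. It gave 0.83 ± 0.32 with an adjusted p of 0.0497, and passed in 14 of the 42 settings in which it was computed. The helicase gene Blm (0.09), the homologous recombination genes Brca1 (0.05) and Brca2 (-0.12) and the exonuclease gene Exo1 (-0.14) did not pass. Blm ran from 6.64 to 11.03 among p53 f/f tumors, with the highest value in liver tumor 24. Brca1 was detected on 4 of 20 p53 f/f tumors, 0 of 8 p53 f/+ tumors and 1 of 10 healthy livers.

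No member separated p53 f/f tumors from healthy livers without overlap, as did 0.259% of all genes upward and 0.156% downward. Healthy liver 1 set the highest healthy value for most members. Without it, 22 members rose and 1 fell, where 19.1% of all genes rose and 18.5% fell, and the differences became 2.71 for Mcm6, 1.96 for Mcm2 and 1.11 for Fancd2; Mcm7, Gins1 and Rrm1 (0.80) then passed. The p53 f/f tumors with a signal shared no array chip with a healthy liver, so chip could enter only as a random block, under which 17 members rose. With arrays scaled by their medians instead of quantiles, 23 members rose and 1 fell; that scaling moved the median of all genes from -0.01 to 0.31 and the share of higher genes among those called from 51.4% to 89.8%.

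The tumors themselves spread widely. Taking for each array the median over the 28 replication members of its log2 signal minus the mean of the other healthy arrays, p53 f/f tumors ran from -0.00 (liver tumor 20) through a median of 0.99 to 2.78 (liver tumor 24). In liver tumor 24, 23 of 28 members lay above the highest healthy liver. The 8 p53 f/+ tumors ran from -0.27 through 0.14 to 1.08 (liver tumor 14), and the healthy livers other than healthy liver 1 (1.86) were between -0.58 and -0.06. For the 5 repair members the same measure was between -0.29 and 1.11 in p53 f/f tumors and between -0.42 and -0.11 in p53 f/+ tumors. In the 8 animals that gave a pair of tumors, the replication measure differed within the pair by 0.04 (lowest), 0.50 (median) and 1.00 (highest).

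**Figure D2:**
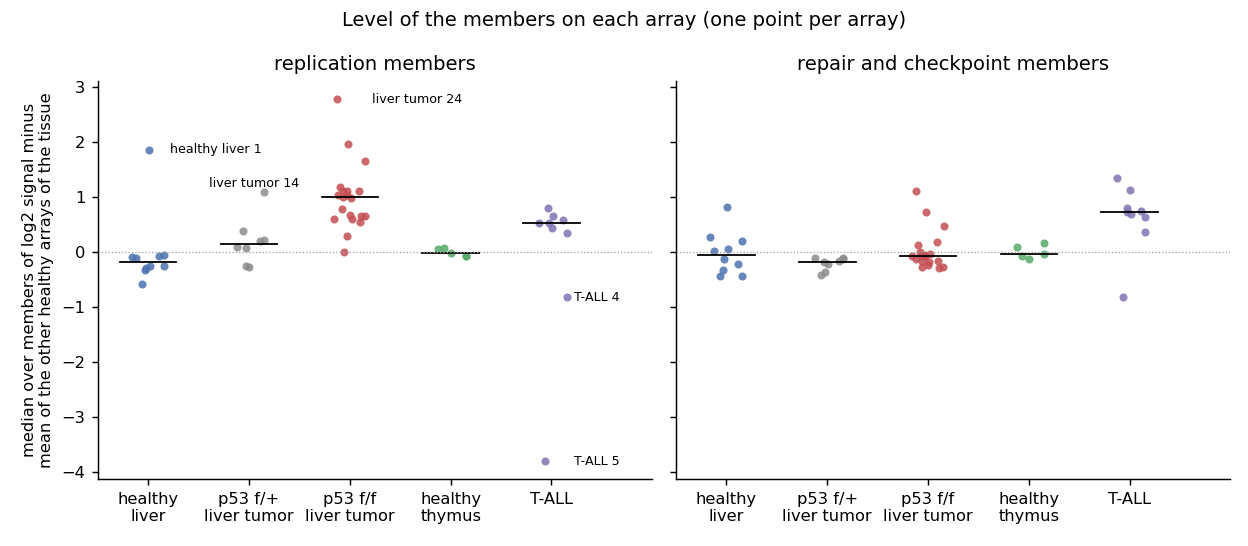
Each point is 1 array, and the vertical axis is the median over the kept replication members (left) or repair members (right) of its log2 signal minus the mean of the other healthy arrays of the tissue; black lines are group medians. Replication medians of p53 f/f tumors run from -0.00 to 2.78 and those of p53 f/+ tumors from -0.27 to 1.08, with healthy liver 1 at 1.86 and T-ALL 5 at -3.81.

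Because most replication members rose together, their promoters were read for the words of the E2F site. The window runs from 250 bases before to 50 after each annotated start (RefSeq, GRCm38.p6), and 33 of the 40 members had such a window. The words TTTCCCGC, TTTCGCGC, TTTGCCGC and TTTGGCGC, on either strand, stood in the windows of 11 of the 33 members (33.3%), 9 of 27 replication and 2 of 6 repair genes, and in 2.60% of 27025 genes with a window. The CCAAT box stood in 57.6% of the members and 41.1% of all genes, and the cell cycle words TTTGAA and TTCGAA in 15.2% and 21.7%. A match is a description of the letters in this window. The windows below, written 5′ to 3′ along the gene with the E2F words in capitals, are those of Mcm6 (chr1:128359656-128359955, minus strand), the member with the largest rise in liver, which holds a pair of overlapping words and a further one; Mcm5 (chr8:75109259-75109558, plus strand), with an overlapping pair; Mcm3 (chr1:20820263-20820562, minus strand), with its words after the start; Rfc3 (chr5:151651159-151651458, minus strand), which rose in both tissues; Rrm2 (chr12:24708004-24708303, plus strand), which rose with none of the words; and Mcm10 (chr2:5012742-5013041, minus strand), which fell in liver and whose window holds no whole word but ends in TTTGGCG. Of the 16 members that rose in p53 f/f tumors and had a window, 7 held a word and 9 held none, so a word did not go with each rise.
Mcm6: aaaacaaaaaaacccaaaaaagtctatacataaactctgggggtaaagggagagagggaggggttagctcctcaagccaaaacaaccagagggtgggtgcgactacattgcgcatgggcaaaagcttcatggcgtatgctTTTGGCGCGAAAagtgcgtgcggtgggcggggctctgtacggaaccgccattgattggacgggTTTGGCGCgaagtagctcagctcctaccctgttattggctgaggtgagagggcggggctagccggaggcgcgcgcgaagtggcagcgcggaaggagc
Mcm5: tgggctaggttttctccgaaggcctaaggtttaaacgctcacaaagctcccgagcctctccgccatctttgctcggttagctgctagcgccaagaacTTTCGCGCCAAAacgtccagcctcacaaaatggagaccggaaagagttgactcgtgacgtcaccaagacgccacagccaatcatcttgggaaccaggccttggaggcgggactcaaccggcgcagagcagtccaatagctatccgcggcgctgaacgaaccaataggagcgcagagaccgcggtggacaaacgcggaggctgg
Mcm3: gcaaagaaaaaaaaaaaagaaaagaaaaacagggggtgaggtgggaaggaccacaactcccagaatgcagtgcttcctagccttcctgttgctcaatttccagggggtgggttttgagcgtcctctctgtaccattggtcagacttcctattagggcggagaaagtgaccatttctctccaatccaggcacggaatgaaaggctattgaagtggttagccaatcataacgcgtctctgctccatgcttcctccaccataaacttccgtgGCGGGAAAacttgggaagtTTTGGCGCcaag
Rfc3: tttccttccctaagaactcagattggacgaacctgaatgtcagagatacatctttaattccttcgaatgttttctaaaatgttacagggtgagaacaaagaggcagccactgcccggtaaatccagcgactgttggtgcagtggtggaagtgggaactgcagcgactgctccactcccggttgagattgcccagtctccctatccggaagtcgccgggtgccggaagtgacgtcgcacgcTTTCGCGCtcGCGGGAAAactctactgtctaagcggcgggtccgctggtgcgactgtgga
Rrm2: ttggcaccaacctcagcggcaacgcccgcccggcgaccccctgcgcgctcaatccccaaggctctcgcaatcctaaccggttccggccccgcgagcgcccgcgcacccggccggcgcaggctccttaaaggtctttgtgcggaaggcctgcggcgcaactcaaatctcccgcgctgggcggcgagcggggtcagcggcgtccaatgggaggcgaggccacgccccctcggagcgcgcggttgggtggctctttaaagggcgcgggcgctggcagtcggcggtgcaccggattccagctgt
Mcm10: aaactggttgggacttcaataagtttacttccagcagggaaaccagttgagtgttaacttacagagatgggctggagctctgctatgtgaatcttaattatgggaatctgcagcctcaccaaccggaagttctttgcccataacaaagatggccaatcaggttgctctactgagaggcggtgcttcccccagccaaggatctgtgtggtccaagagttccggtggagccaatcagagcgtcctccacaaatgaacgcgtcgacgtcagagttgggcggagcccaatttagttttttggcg

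In p53 f/+ liver tumors, heterozygous for floxed Trp53 by their label, no member rose and 2 fell, where 7.65% of all genes rose and 5.04% fell. At an unadjusted p under 0.05 there were 9 of the 33 members, a share near that of all genes (3218 of 11567). Of the 33 mean differences 21 were above 0 (48.0% of all genes). Mcm10 fell as given above, with 2 of 8 tumors below every healthy liver. Tk1 was at 5.33, 8.45 and 9.02 in these tumors against 8.43, 9.52 and 10.21 in healthy liver, with 4 of 8 tumors below every healthy liver, and fell by 1.46 ± 0.41 (adjusted p = 0.0156). The lowest Tk1 value was the dim liver tumor 13, without which the difference was -1.03 (adjusted p = 0.0729), and a dimmer Tk1 probe was at a mean of 5.41 in these tumors and 5.94 in healthy liver. The members with the highest differences were Rrm2 (1.08 ± 0.40, adjusted p = 0.0682) and Mcm6 (0.99 ± 0.54, adjusted p = 0.233). Without liver tumor 13, Rrm2 rose (1.36, adjusted p = 0.0259). Without healthy liver 1, 6 members rose: Mcm6 (1.39), Rrm2 (1.29), Chaf1a (1.09), Chaf1b (1.05), Lig1 (0.89) and Cdc6, which no tumor and no healthy liver had above detection. This comparison and the previous share the healthy livers.

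Set against each other directly, the tumor groups differed past the threshold in 1 member, where 0.138% of all genes were higher and 0.337% lower in p53 f/f tumors. Gins1, a subunit of the GINS complex, was at 7.61, 8.36 and 10.18 in p53 f/f tumors, at 5.09, 7.24 and 7.97 in p53 f/+ tumors and at 6.80, 7.84 and 8.45 in healthy liver. Of the 20 p53 f/f tumors, 16 lay above every p53 f/+ tumor. The difference was 1.57 ± 0.29 (2.96-fold, adjusted p = 0.013), and it became 1.27 (adjusted p = 0.0683) without liver tumor 13, 1.45 with chip as a fixed effect, 1.78 within chip C and 1.03 within chip E; none of these 4 fits called a member. Of the 33 mean differences 32 were above 0 (52.1% of all genes), with a median of 0.72 (0.02 over all genes). An unadjusted p under 0.05 was found for 22 of the 33 members and for 1716 of all 11567 genes. Lig1 (0.93, adjusted p = 0.0576, 17 of 20 tumors above every p53 f/+ tumor), Ccne1 (1.23, adjusted p = 0.0584) and Mcm5 (1.32, adjusted p = 0.0671) came next. Exo1 had the lowest difference, -0.01, and all 28 replication members were above 0, from 0.13 (Mcm10) upward. Median scaling moved the median of all genes to 0.30, and called 3 members. Liver tumor 14 was the p53 f/+ tumor with the highest replication measure, and without it 5 members were higher: Gins1 (1.70), Mcm2 (1.65), Mcm5 (1.55), Ccne1 (1.30) and Lig1 (0.99). Without liver tumor 28 there were 4, with Tk1 (1.41) in place of Mcm2 and Mcm5.

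Other genes of these pathways, from wider lists, moved in the same comparisons. Of 35 further replication genes 11 rose and 2 fell in p53 f/f tumors (all genes: 15.0% and 14.1%), among them Dbf4 (1.99; the activator of the Cdc7 kinase), Rnaseh2b (1.34) and Chtf18 (1.22), with Orc3 (-1.07) and Orc2 (-0.57) of the origin recognition complex falling. In the list of E2F and pocket protein genes 4 of 12 rose, with Cdc25a (1.87), E2f2 (1.36) and Rbl1 (1.22), and 2 fell, Tfdp2 (-0.86) and E2f6 (-0.56). Recombination and Fanconi genes gave 5 higher and 3 lower of 19, with Rad54b (1.64), Rad54l (1.14) and Slx4 (1.12) against Xrcc3 (-0.58), Mus81 (-0.54) and Fance (-0.39). The remaining repair lists changed in a few genes each: 3 higher and 1 lower of 12 for base excision (Ung 1.08, Apex1 0.94, Mbd4 0.65; Polb -0.48), 3 and 1 of 11 for nucleotide excision (Ercc2 1.47, Ddb2 0.62, Ercc3 0.56; Ercc8 -0.70), 1 and 2 of 9 for damage signaling (Rad1 1.04; Atrip -0.76, Hus1 -0.39), 1 and 1 of 4 for mismatch repair (Msh6 0.60; Mlh3 -0.94) and 0 of 4 for end joining. Mitosis genes rose in 14 of 16, with Pbk (3.49), Prc1 (3.25) and Cdca8 (2.64), and their per-array measure in p53 f/f tumors had a median of 2.10. In p53 f/+ tumors these lists gave 2 higher, Cdc25a (1.20) and Rrm2b (0.84), and 4 lower, Tfdp2 (-1.17), Orc3 (-1.04), Dut (-0.78) and Orc2 (-0.56), with 0 of 16 mitosis genes. That was 1 higher and 3 lower of 35 replication genes and 1 and 1 of 12 E2F and pocket protein genes. The repair and damage signaling lists gave 0 (all genes: 7.65% higher and 5.04% lower). Between the tumor groups 1 of 16 mitosis genes differed, Nusap1 (1.21). Markers of other cells also differed from healthy liver. Neutrophil markers rose in 3 of 6 in p53 f/f tumors (S100a8 2.81, S100a9 2.81 and Camp 1.29; log2 summed level 8.73 to 14.1 against 7.84 to 10.3 in healthy liver) and in 1 of 6 in p53 f/+ tumors (S100a8 2.40; 10.1 to 10.9). Of 3 bile duct markers 1 rose in each tumor group, Sox9 (2.82 and 2.07). In p53 f/f tumors Sox9 alone of the 3 had a mean difference above 0 (median -0.06), and in p53 f/+ tumors all 3 did (median 1.15). Stellate and fibroblast markers gave 2 higher and 1 lower of 6 in p53 f/f tumors and 2 higher of 6 in p53 f/+ tumors, with the collagen Col1a1 (1.86 and 3.24) in both. Of these 6 mean differences 3 were above 0 in p53 f/f tumors (lowest -1.39) and 5 in p53 f/+ tumors. Endothelial markers gave 1 higher and 1 lower of 5 in p53 f/f tumors and 3 higher and 1 lower of 5 in p53 f/+ tumors. From the B lineage list, Cd74 alone rose in p53 f/f tumors (2.02; 1 of 3), and the 3 genes had a median difference of 0.16. The median log2 summed level of that list was 13.7 against 11.0 in healthy liver. With 1 gene of the list called, this level is not read as more B cells. In p53 f/+ tumors 0 of 3 passed. The macrophage marker Lyz2 rose in both (1.32 and 2.21; 1 of 5), the erythroid precursor marker Klf1 fell in both (-0.89 and -1.04; 1 of 4), and 0 of 7 hepatocyte and 0 of 6 T lineage markers changed in either. The part of these cells in the results was not tested.

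In T-ALL, Fanca, Pole, Rfc3 and Topbp1 rose over all arrays. These were 4 of the 35 members kept in thymus, and 0 fell, where 1.42% of all genes rose and 9.00% fell. Fanca, a core Fanconi protein, was at 5.62, 6.01, 6.87, 6.40 and 6.47 in healthy thymuses 1 to 5 and at 5.45, 8.71 and 9.81 (lowest, median, highest) in T-ALLs. The lowest was the nearly blank T-ALL 5, and the other 8 lay above every thymus. It rose by 2.21 ± 0.58 (4.63-fold, adjusted p = 0.0193). Pole, the catalytic subunit of polymerase epsilon, was at 6.42, 6.27, 6.36, 5.91 and 5.66 in thymus and at 6.57, 7.64 and 9.92 in T-ALL. All 9 T-ALLs lay above every thymus, as they did for Topbp1, and 1.37% of all genes separated the groups in this way. Both probes were detected on 8 of the 9; the values of T-ALL 5 (7.13 for Pole and 9.21 for Topbp1, the highest of the group) did not pass detection. Pole rose by 1.73 ± 0.48 (adjusted p = 0.027). Rfc3 of the clamp loader was at 5.92, 5.53, 5.85, 5.41 and 5.98 in thymus and at 5.06, 7.62 and 8.18 in T-ALL, and rose by 1.67 ± 0.44 (adjusted p = 0.0203). Topbp1, which activates the checkpoint kinase Atr, was at 7.26, 7.35, 7.34, 7.69 and 7.19 in thymus and at 7.78, 8.57 and 9.21 in T-ALL, and rose by 1.14 ± 0.34 (adjusted p = 0.0414). The member with the lowest difference was Rrm2, at -1.43 ± 0.91 (adjusted p = 0.414).

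The spread of the T-ALL group was set by T-ALL 4 and T-ALL 5. Over the 28 replication members, the per-array measure was -3.81 in T-ALL 5 and -0.83 in T-ALL 4, and between 0.34 and 0.79 in the other 7; in the 5 thymuses it was between -0.08 and 0.07. For the 7 repair members the other 7 T-ALLs were between 0.63 and 1.34. Without T-ALL 4 and T-ALL 5, 21 members rose (15 of 28 replication and 6 of 7 repair) and 0 fell, where 20.0% of all genes rose and 25.9% fell. The mean difference was above 0 for 34 of the 35 members and for 49.0% of all genes. Without T-ALL 7 as well, 19 members rose (13 replication) and 0 fell; without T-ALL 7 alone Fanca (2.24), Pole (1.80) and Rfc3 (1.65) rose. Of the 35 members 15 lay above every thymus on all 7 arrays, as did 10.7% of all genes. Fanca (2.45 ± 0.29), Rfc3 (1.97 ± 0.22), Gins2 (1.56 ± 0.21), Pole (1.54 ± 0.34) and Tyms (1.30 ± 0.24) had the highest differences. Topbp1 (0.96), Brca2 (0.95), Fancd2 (0.65) and Blm (0.42) rose among the repair genes, and Chek1, a checkpoint kinase, gave 0.53 (adjusted p = 0.0625). Brca1 was above detection in 0 of 5 thymuses and in 6 of 9 T-ALLs, with means of 4.97 and 5.86 over all arrays (adjusted p = 0.0959). It passed without T-ALL 4 and T-ALL 5 (adjusted p = 0.0025), and no fold is given because no thymus detected it. Brca1 was kept in thymus through T-ALL arrays alone, so the filter favored this direction, and the counts of rises above include it. Of the 12 origin and helicase members 7 rose, among them Gins2, Mcm3 (1.11 ± 0.30), Mcm10 (0.85 ± 0.21), Mcm7 (0.80 ± 0.19) and Mcm2 (0.34, adjusted p = 0.0475). Mcm5 (0.07) and Mcm4 (0.09) had the lowest differences of these 12. Chaf1b rose as well (1.03 ± 0.29). Rrm2 was at 9.98, 10.67 and 11.04 in the 7 T-ALLs against 10.69, 10.95 and 11.05 in thymus (-0.38, adjusted p = 0.0894). A further Rrm2 probe, detected on 12 thymic arrays, gave 0.33 without T-ALL 4 and T-ALL 5 and -0.71 over all arrays, so the probes of this gene differ.

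**Figure D3:**
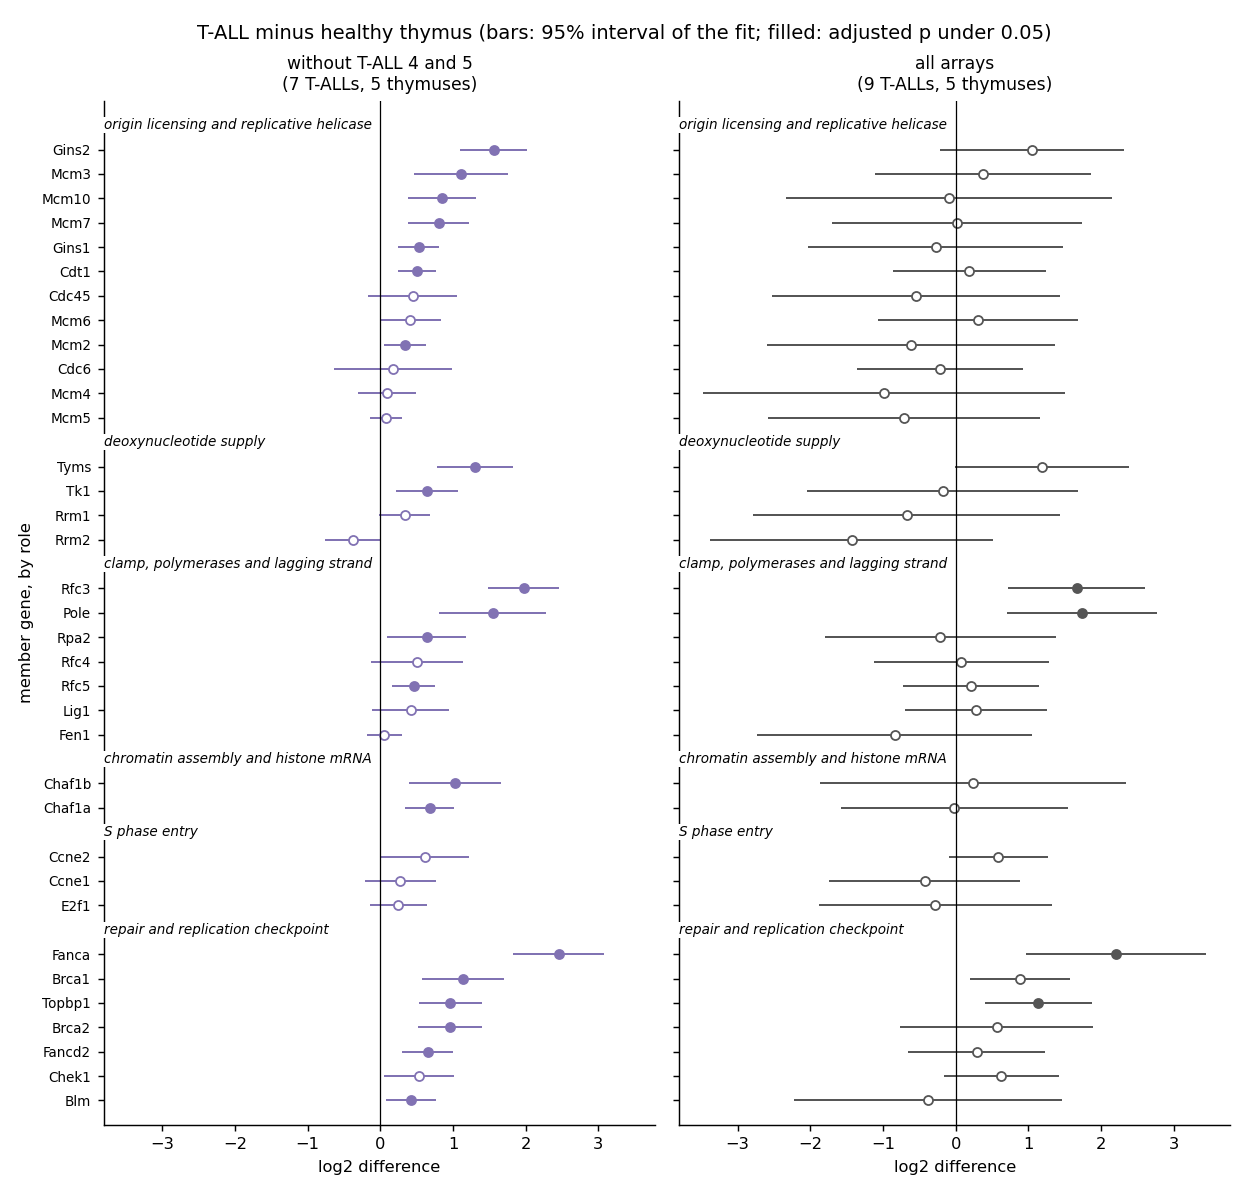
Log2 differences of the 35 members kept in thymus, T-ALL minus healthy thymus, without T-ALL 4 and T-ALL 5 (left) and over all arrays (right); bars are 95% intervals of the fit and filled points passed the test. Filled points number 21 on the left and 4 on the right, and Fanca lies farthest to the right in both.

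T-ALLs and thymuses lay on different chips, so chip and group cannot be told apart; with chip as a random block 0 members passed. Leaving out a single thymus left 0 (healthy thymus 2), 1 (healthy thymus 1 or 4) or 2 members (healthy thymus 3 or 5), and leaving out T-ALL 5 alone gave 10. Median scaling moved the median of all genes from -0.32 to -0.65. Markers of other cells fell beside these results over all arrays: 5 of 6 neutrophil, 3 of 4 thymic epithelium and 2 of 3 B lineage markers were lower in T-ALL (neutrophil log2 summed level 7.39 to 10.4 against 11.1 to 12.3 in thymus), as were 2 of 8 T lineage markers. Their part in the result was not tested. For Mcm7 a further probe gave 2.08 without T-ALL 4 and T-ALL 5, against 0.80 for the probe used. In the wider lists without these 2 arrays, 19 of 35 further replication genes rose and 1 fell, where 20.0% of all genes rose and 25.9% fell (Wdhd1 1.27, Dbf4 1.08, Nasp 0.92; Pold3 -0.51). Recombination and Fanconi genes gave 7 higher and 1 lower of 21 (Usp1 1.56, Rad51ap1 1.21, Xrcc3 1.19; Mus81 -1.72), and base excision genes gave 6 higher of 12 (Ung 1.19, Apex1 1.17, Parp1 0.94). Damage signaling genes gave 3 higher and 1 lower of 9 (Rad1 0.78, Chek2 0.71, Atm 0.54; H2ax -1.45), and E2F and pocket protein genes 3 and 2 of 12 (Tfdp1 1.56, Cdc25a 1.05, E2f3 0.89; E2f2 -0.75, Rbl1 -0.51). Mitosis genes rose in 6 of 17, with Aurkb at 1.03.

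The change from normal tissue to tumor was then compared between the tissues in a fit of all 52 arrays normalized together, for 36 members. On the liver side stood all liver tumors, with the p53 f/f and p53 f/+ means weighted by their 20 and 8 arrays. Their difference from healthy liver, less that of T-ALL from thymus, was past the threshold above 0 for 2 members. It was below 0 for 6, where 13.8% and 5.30% of all genes were above and below. Rrm2 (3.05 ± 0.77, adjusted p = 0.00311) and Lig1 (1.09, adjusted p = 0.0414) were above 0. The further Rrm2 probe, which was higher in T-ALL than in thymus without T-ALL 4 and T-ALL 5, was not part of this fit. Fanca (-2.11), Pole (-1.59), Topbp1 (-1.16), Brca1 (-0.82), Chek1 (-0.73) and Mcm10 (-2.72) were below 0. For Mcm10 the difference from healthy liver was -2.73 in p53 f/f tumors and -2.85 in p53 f/+ tumors. The T-ALL difference was -0.09, which became 0.72 without T-ALL 5 and 0.85 without T-ALL 4 and T-ALL 5. In liver Brca1 was detected on 5 arrays, Fanca on 4, Topbp1 on 2 and Chek1 on 0 of 38, so no change in liver could be measured for these 4 genes and their values here hold only the T-ALL side. Pole was detected on 12 of the 38. Without T-ALL 4 and T-ALL 5, Rrm2 (2.02) alone was above 0 and 8 members were below it, with Brca2 (-1.19) and Rfc3 (-1.25) added. Lig1 then gave 0.95 (adjusted p = 0.0548), and without healthy liver 1 as well 5 members were above 0 (Rrm2, Mcm6, Mcm4, Mcm5 and Lig1) and the count below it was again 8. Median scaling moved the median of all genes to 0.76, called 7 above 0 and left Fanca and Brca1 below it.

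On the scale of both tissues, most members had higher means in the thymic groups than in the liver groups. The T-ALL means over all arrays hold T-ALL 4 and T-ALL 5; without these, the T-ALL mean was above that of thymus for 34 of 36 members (27 of 28 replication and 7 of 8 repair). The mean of Exo1, detected on no thymic array, was raised by an undetected value of 10.70 in T-ALL 5. Over all arrays, for 32 of the 36 members both thymic means lay above all 3 liver means. Fanca, Topbp1 and Chek1 are among these 32. They were kept through thymic arrays alone, so the filter itself favored a higher thymic level for them. The highest of the 5 group means was in T-ALL for 21 members, in thymus for 14 and in healthy liver for 1. Within liver, the p53 f/f tumors had the highest mean for 25 of the 28 replication members, and the order healthy liver, p53 f/+ tumor, p53 f/f tumor held for 20 of them. No liver order is given for the repair members, since 5 of the 8 were detected on at most 5 of the 38 liver arrays. Thymus and healthy liver were on different chips and cannot be told apart from them. Between these normal tissues 31 of 36 members were higher in thymus and 0 lower, where 28.3% and 20.0% of all genes were, and 26 members did not overlap, as did 20.8% of all genes upward. The 31 again hold Fanca, Topbp1 and Chek1, for which this direction was favored by the filter. The largest differences were those of Rrm2 (5.13), Mcm5 (5.06), Mcm6 (4.69), Mcm2 (4.57) and Cdc45 (4.16). Tk1 (0.85), Rfc3 (0.23), Brca1 (-0.06), Exo1 (-0.23) and Mcm10 (-0.71) did not pass.

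T-ALLs, which carry the same floxed alleles as p53 f/f liver tumors, were above these in 33 of 36 members and below in 0, where 26.6% and 28.0% of all genes were. The 33 hold Fanca, Topbp1 and Chek1, which were kept through thymic arrays alone, so the filter favored this direction for them. Among members detected on at least 14 of the 20 p53 f/f tumors, Fancd2 (3.06), Mcm5 (2.89) and Mcm6 (2.72) differed most. Topbp1 and Fanca were detected on 1 and 3 of these tumors, so the size of their difference is not given. Tk1 (0.91), Ccne1 (0.50) and Exo1 (0.44) did not pass. Mcm6 was at 6.44 ± 1.42 (SD, n = 10) in healthy liver, 7.43 ± 1.27 (n = 8) in p53 f/+ tumors, 8.79 ± 0.92 (n = 20) in p53 f/f tumors, 11.13 ± 0.19 (n = 5) in thymus and 11.49 ± 1.29 (n = 9) in T-ALL. Lig1 followed the same order, from 6.96 ± 0.68 through 7.69 ± 0.31, 8.61 ± 0.52 and 10.06 ± 0.10 to 10.36 ± 0.66. For both genes thymus and T-ALL did not differ past the threshold, nor did p53 f/+ tumors and healthy liver. Brca1 was below detection on most arrays of 4 groups (means 4.96 to 5.08) and reached 5.81 ± 0.72 in T-ALL.

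**Figure D4:**
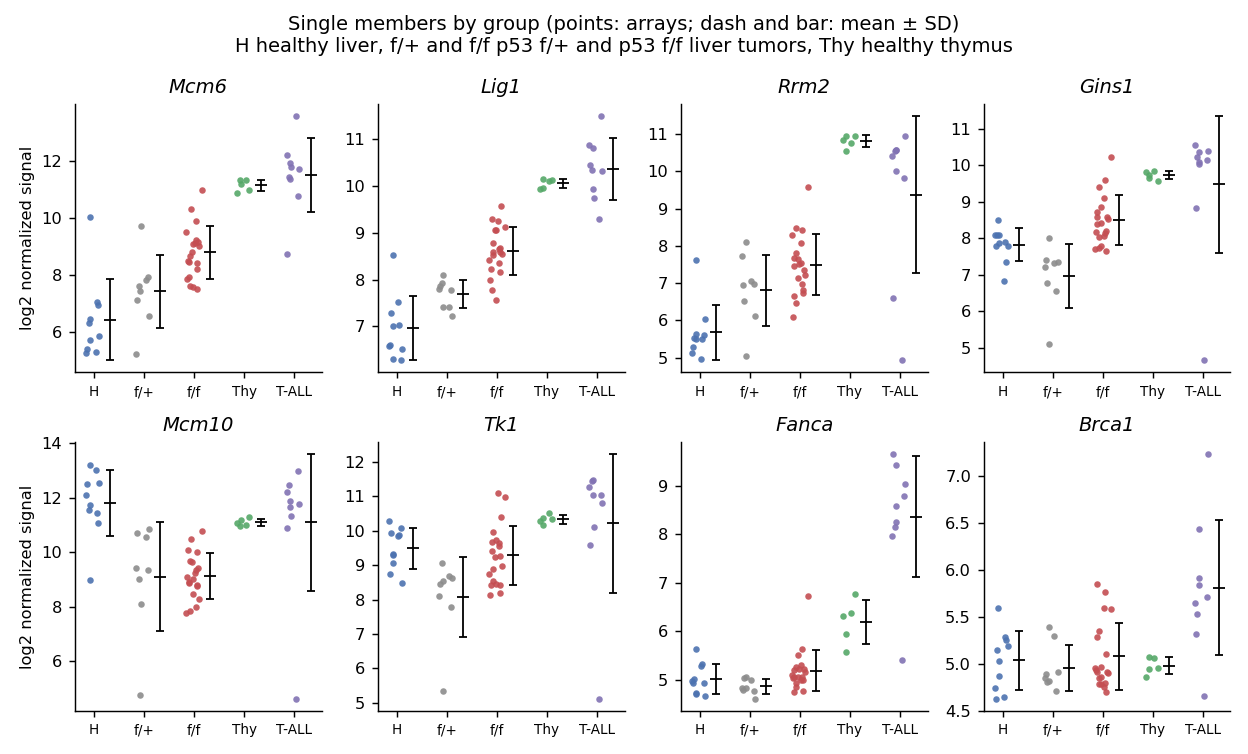
Log2 signal of 8 members by group on the scale of both tissues; points are arrays, and the dash with its bar is the mean ± SD. Mcm6, Lig1 and Rrm2 step up from healthy liver to p53 f/f tumors and again to thymus, Mcm10 is highest in healthy liver, and Fanca and Brca1 stand out in T-ALL.

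**Figure D5:**
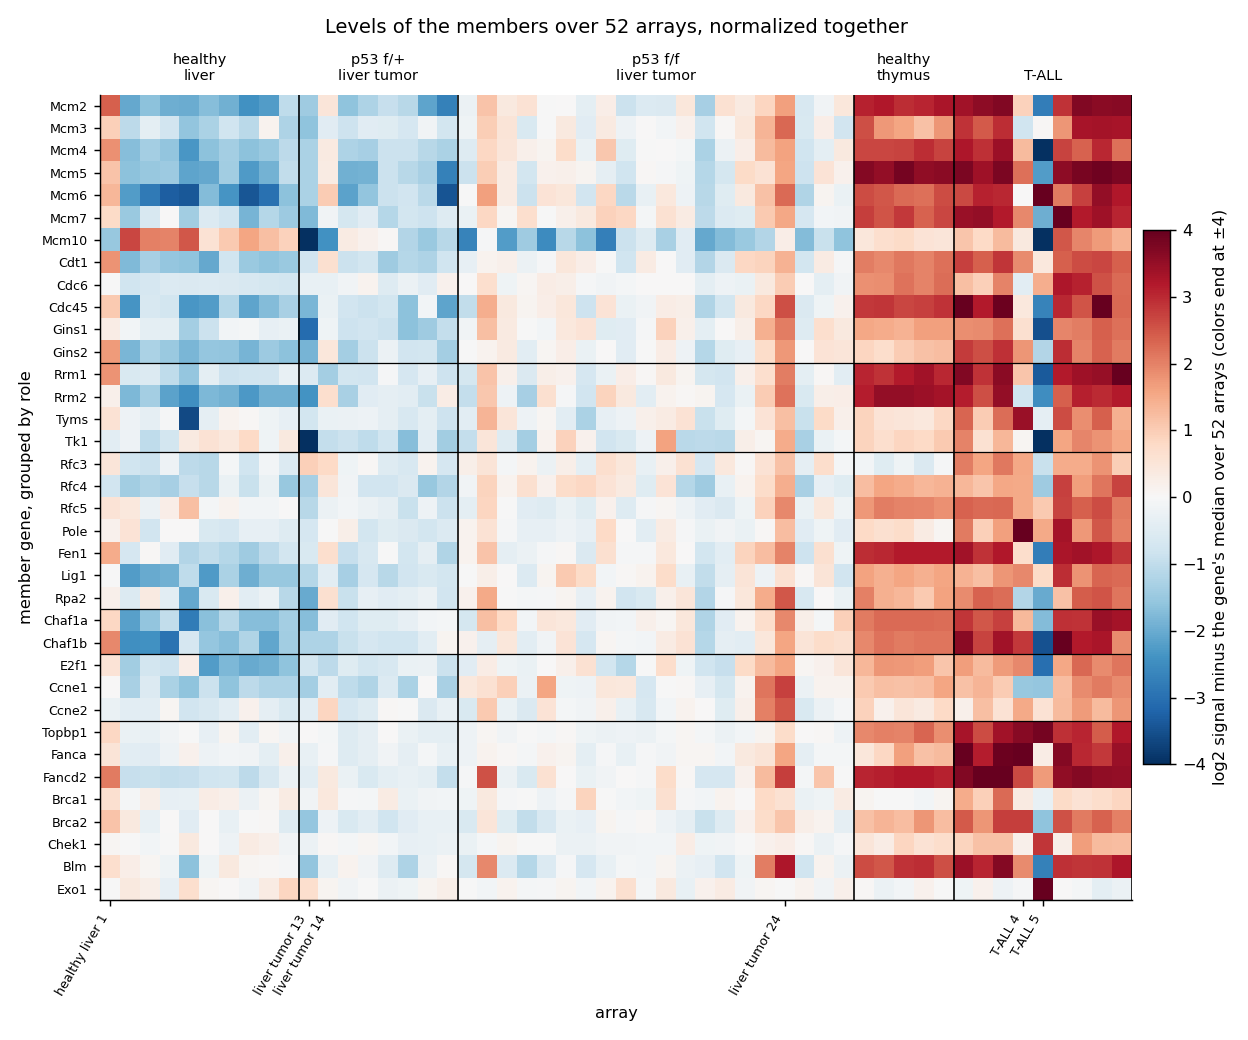
Rows are the 36 members kept in either tissue, grouped by role, and columns the 52 arrays by group; color is the log2 signal minus the gene's median over the 52 arrays and saturates beyond 4 either way. Healthy liver 1 and liver tumor 24 are red within their groups, T-ALL 5 is a column of mixed extremes, and the thymic groups are red in most rows.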

How the data were processed

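The authors extracted RNA from liver tumors, T-ALLs, healthy livers and thymuses and hybridized it to Illumina bead arrays. They deposited, per the file headers, a table of each probe's mean signal intensity (not normalized) with a detection score, a fraction from 0 to 1, and a value table that they had normalized to log2 values with limma, per the labels, with no version given. The intensity was the main measure, and the log2 values, which also hold liver tumor 12, served as an alternative. The 2 ranked probes alike on every array that has both but T-ALL 7 (rank correlation 0.786), whose label gives the array position of the intensity column used. For 1 array, its 2 columns matched no sample and were not used. Probes were named through the platform annotation (45281 probes; 34885 with 1 symbol, 18 with several, 10378 not listed), and 99.8% of symbols matched RefSeq.

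Intensity was corrected, quantile normalized and put on the log2 scale with neqc (offset 16, detection p = 1 minus the score) within each tissue, or over 52 arrays for comparisons across tissues, with limma 3.58.1 in R 4.3.3. Models with group means (lmFit, eBayes with trend and robust) took the animal as a random block in liver, where 8 animals gave 2 tumors each (correlation 0.186, statmod 1.5.0); each other sample was taken as 1 animal. P-values are two-sided and adjusted by Benjamini-Hochberg over all genes (11567 in liver, 10382 in thymus, 12313 jointly), threshold 0.05. Bars are 95% intervals. Array number limits the precision. Where no array of a group detected a probe, no fold is given. In simulated data the p53 f/f against healthy liver fit (11567 genes) found 72 of 100 genes changed by 1 log2 unit and 92 of 100 changed by 2, and the T-ALL fit (10382 genes) 5 and 35 of 100.

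Genes named are, in each comparison, the called members with the largest changes in each role group, those moving against their group, and the lowest and highest differences; Mad2l1; and up to 3 called genes each way of each wider list. The members and lists were chosen with earlier results of these data known. Alternatives covered scaling, the log2 values, filters, probe averaging, array weights, chip, animal and each sample left out. Same-numbered samples did not deviate together (10 liver pairs, correlation -0.08 to 0.158; 5 thymic pairs, -0.078 to 0.14), so the main fits did not pair them by number. Low correlations cannot exclude that such samples are paired. The plots were drawn with matplotlib 3.10.9.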

Additional observations from a re-analysis of the deposited data

Results flagged for a closer look

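Among 136 tests of a group of 4 to 10 arrays, 45 had a highest or lowest array far from its neighbor (Dixon's test at 95%, which chance meets in about 1 of 20 groups). Most came from 4 arrays named above.

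In healthy liver 1 the highest value stood apart for Mcm2 (10.95), Mcm4 (12.45), Mcm5 (10.60), Mcm6 (9.97), Cdt1 (10.15), Cdc6 (5.26), Cdc45 (8.40), Gins2 (8.49), Rrm1 (9.94), Rrm2 (7.57), Fen1 (10.74), Chaf1a (8.83), Chaf1b (10.21) and Fancd2 (7.60). Its Mcm10 value was the lowest (8.93). Healthy liver 5 was lowest for Tyms (5.17) and Blm (6.14).

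In T-ALL 5, the nearly blank array, the lowest value stood apart for Mcm2 (5.91), Mcm4 (5.08), Mcm5 (7.37), Mcm7 (4.71), Mcm10 (4.62), Cdt1 (8.96), Gins1 (4.66), Gins2 (5.57), Rrm1 (4.83), Tk1 (5.13), Rfc3 (5.06), Rfc4 (4.74), Fen1 (6.62), Chaf1a (6.42), Chaf1b (4.85), E2f1 (5.97), Fanca (5.45), Brca2 (4.89) and Blm (5.11). In thymus, Mcm4 was highest in healthy thymus 4 (13.43) and Chaf1a lowest in healthy thymus 1 (10.29).

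Among p53 f/+ tumors, the dim liver tumor 13 was lowest for Mcm10 (4.74), Tk1 (5.33), Chaf1a (6.33) and Brca2 (4.94), and liver tumor 14 was highest for Mcm4 (10.90), Cdt1 (9.00) and Ccne2 (6.15).

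The tumor-to-normal change differed between liver and thymus, by the test of the difference itself, for Rrm2 (3.05) and Lig1 (1.09), above 0 as liver less thymus, and below 0 for Mcm10 (-2.72), Fanca (-2.11), Pole (-1.59), Topbp1 (-1.16), Brca1 (-0.82) and Chek1 (-0.73). For Mcm10 the fall in p53 f/f liver tumors (-2.73) stood beside -0.09 in T-ALL, or 0.72 without T-ALL 5. Fanca, Topbp1, Brca1 and Chek1 were detected on 4, 2, 5 and 0 of 38 liver arrays, so that no liver change could be measured for them and these values are not exact differences.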

How the results depend on the processing

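Of the 20 members called in p53 f/f tumors against healthy liver, 16 were called in every setting; the count of rises was 15 with the authors' log2 values, 16 with the replicate block and 17 to 22 with an animal or a healthy liver left out (lowest without animal m16 or healthy livers 6 to 9, highest without healthy liver 1), and Mcm10 fell in all of them. For p53 f/+ tumors, rises and falls numbered 1 and 1 with the authors' values, 8 and 4 with array weights, and 0 and 1 with median scaling. Without the animal block 1 rose, and within chip G 0 fell. Leaving samples out gave 0 to 6 rises (6 without healthy liver 1, 2 without liver tumor 15 or animal m17, 1 without liver tumor 13 or healthy liver 5) and 1 to 4 falls (1 without liver tumor 13, 4 without animal m17). Median scaling raised the share of higher genes among those called from 60.3% to 77.1%, and the authors' values lowered it to 45.8%. Between the tumor groups, 3 members were higher with median scaling (share of higher genes 29.1% to 91.2%), 0 with the authors' values, 11 with array weights, 4 without the animal block, 0 with chip fixed, 0 within chip C, 0 within chip E, and 0 (without liver tumor 13) to 5 (without liver tumor 14) with samples left out, with 4 without liver tumor 28 or animal m15 and 2 without animal m7, m11 or m20. For T-ALL, rises numbered 2 with the authors' values, 24 with array weights, 0 with chip as a random block, 0 with the replicate block, 21 without T-ALL 4 and T-ALL 5, 19 without T-ALL 7 as well, and 0 (without healthy thymus 2) to 10 (without T-ALL 5) with samples left out. The difference between the tissues gave 7 above 0 and 2 below with median scaling (share of higher genes 72.2% to 91.7%), 1 above without T-ALL 4 and T-ALL 5, with or without T-ALL 7, and 5 above without healthy liver 1 as well.

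Some T-ALL members changed sign and passed. Without T-ALL 4 and T-ALL 5 these were Mcm2 (0.34), Mcm10 (0.85), Gins1 (0.52), Tk1 (0.64), Rpa2 (0.64), Chaf1a (0.68) and Blm (0.42); without T-ALL 7 as well Mcm10 (0.79), Gins1 (0.53), Tk1 (0.58), Chaf1a (0.69) and Blm (0.46); with array weights Mcm10 (0.79), Gins1 (0.53), Tk1 (0.70), Rpa2 (0.71), Chaf1a (0.69) and Blm (0.40); and without T-ALL 5 Mcm10 (0.72; -0.32 to 0.72 with any sample left out). The array weights of T-ALL 4 and T-ALL 5 were 0.092 and 0.00999. Where not given by fewer samples, the cause of a change was not tested. No paired analysis was possible for the comparisons with p53 f/+ tumors because they share no sample numbers. Fits with chip as a fixed effect or within chips fits without liver tumor 13, fits without T-ALL 4, T-ALL 5 and T-ALL 7, and fits without T-ALL 4 and T-ALL 5 across tissues were chosen after seeing the data. Depth is not known for bead arrays; members near the lowest detected signal (mean over arrays 5.52 in liver and 5.91 in thymus, the latter with T-ALL 5) could show only large rises.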
